A study of Mus musculus with 3 samples.

Results

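The myogenic regulatory factors Myod1, Myf5, Myf6 and Myog, and their inhibitors Mdfi and Mdfic, were followed in mouse otic placodal ectoderm, the patch of head ectoderm that gives rise to the inner ear. These 6 genes, of 27670 gene names on the array, were found by symbol and had 8 of its 41174 probes and 35 of the 43379 spots per array. They had been chosen by name after their Cy5 over Cy3 ratios in the contrast described here were known, since Myod1 and Mdfi stood far out there, so their values are a description and carry no test. Fgf3-/-;Fgf10-/- placodes (double null, labelled with Cy5) were compared with Fgf3+/-;Fgf10+/- placodes (double heterozygote, labelled with Cy3) from untreated embryos at 4 to 8 somites. Both groups thus carried null alleles of both genes, and neither was wild type. Each of the 3 arrays, which lay on the same slide, held 1 biological pool of 10 placodes per genotype. The dyes were not swapped, so that a probe's dye effect and the genotype cannot be told apart. All ratios are double null over double heterozygote.

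Myogenic regulatory factors are basic helix-loop-helix (bHLH) proteins that bind DNA together with E proteins and switch on skeletal muscle genes. Myf5 and Myod1 commit cells to the muscle lineage, Myog drives their differentiation, and Myf6 acts in both. In the embryo these factors are known from somites and, later, from the muscle progenitors of the head, and placodal ectoderm is not a muscle-forming tissue. Mdfi (I-mfa) and its relative Mdfic share a cysteine-rich carboxy-terminal domain. Mdfi binds myogenic factors, masks their nuclear localisation signal and holds them in the cytoplasm, and proteins of this family also bind Tcf/Lef factors, axin and Zic proteins.

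The probes that carry the results differ in composition, and parts of 5 of them are shown because the behaviour of Myod1 and Mdfi has to be read probe by probe. The probes had 60 bases each, and positions are on mm7, the mouse build named in the file headers. The Myod1 probe (chr7:42554787-42554846, plus strand) began with a run of 5 TTG units, given in capitals. The Myog probe (chr1:134182082-134182141, plus strand) also consisted largely of T and G. Capitals mark TTGT or TGTT in its last 30 bases, read from the left and without further copies that overlap a marked one. The Myf5 probe (chr10:106945401-106945460, minus strand) was instead rich in A and T, with runs of 6 or more such bases in capitals. The Mdfi probes (chr17:45951992-45952051 and chr17:45951987-45952046, minus strand) overlapped, and capitals mark bases that both hold.
Myod1, bases 1 to 30: ttTTGTTGTTGTTGTTGtagtccttcagtt
Myog, bases 31 to 60: TGTTtaTTGTtTTGTgTGTTgtTTGTaaag
Myf5, bases 1 to 30: ttgtatatgccTTAAAATAActtgATAAAT
Mdfi probe 1, bases 1 to 30: agcctGGTAGGACAGAACCAGTTAGCTGCC
Mdfi probe 2, bases 1 to 25: GGTAGGACAGAACCAGTTAGCTGCC

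The scanner software judged 26452 to 28258 spots per array well above background in Cy3 and 27284 to 29177 in Cy5. A probe was used for comparison if most of its spots were well above background in 1 channel on all 3 arrays, which held for 25495 probes, and for 5 of the 8 member probes (Myod1, both of Mdfi and both of Mdfic). The targeted genes gave log2 ratios of -0.69, -0.06 and -0.69 for Fgf3 (limma adjusted p = 0.121) and of 0.31, -0.11 and 0.23 for Fgf10 (adjusted p = 0.386). The position of the 2 probes relative to the deleted sequence was not analysed here. Over all probes, 1.48% passed a limma adjusted p of 0.05, with 1.2% higher and 0.282% lower in the double null. At an unadjusted p under 0.05 lay 20.2% of the probes, 11.8% higher and 8.37% lower, which is the share against which such counts of genes are to be read. Of the 305 higher probes, 220 were very bright, with a mean log2 intensity above 15, where the median log2 ratio of all 757 probes was 0.19. The members had mean log2 intensities below 10. Every value rests on 3 arrays, and their number limits the precision.

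Myod1 signal was higher in the double null channel on every array. The scanner's processed signal, which is background-subtracted and dye-normalized, was 198, 384 and 444 in the double heterozygote and 482, 1036 and 1158 in the double null on arrays 1, 2 and 3. The channels did not overlap within any array, but the double null signal on array 1 lay close to the double heterozygote signal on array 3. The normalized log2 ratios were 1.103, 1.335 and 1.269, with a mean of 1.24 ± 0.12 (SD, n = 3), a 2.35-fold difference. The SE of these 3 values was 0.0690. The moderated SE of the fit, which draws the variance of a probe towards that of all probes, was 0.0613. Of the 5 usable member probes 1 reached a log2 ratio of 1, where 0.0471% of all probes did, and Myod1 ranked as the third highest of the 25495. None of the 1558 probes within 0.25 log2 units of its brightness was as high, and 99% of those lay below 0.32. In bulk tissue such as this, a difference in the number of cells that hold a transcript and a difference in transcript per cell cannot be told apart.

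**Figure D1:**
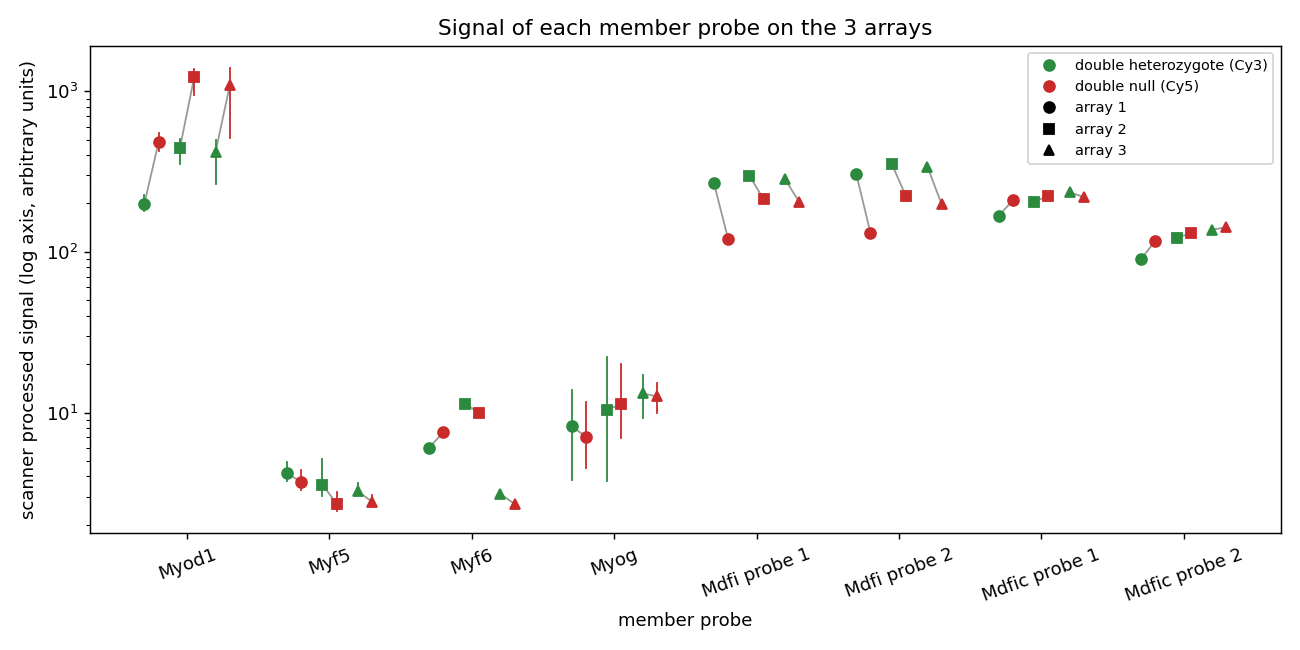
The scanner's processed signal (log axis) of the 8 member probes on each of the 3 arrays, green for the double heterozygote and red for the double null, with grey lines joining the channels of an array. Points are means over all spots of a probe and vertical lines the range over its 10 spots where it had 10. Myod1 was higher and both Mdfi probes lower in the double null on all 3 arrays, and Myf5, Myf6 and Myog lay near background.

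The level of Myod1 signal also differed between arrays, in both genotypes alike. On array 1 it was 2.09-fold lower in the double heterozygote channel and 2.28-fold lower in the double null channel than the mean of arrays 2 and 3 on the log scale. Only 0.486% and 0.177% of the probes shifted that far down in the same channels, and the median shift of all probes was -0.07 in each. The signal thus varied between arrays within a genotype by nearly as much as between the genotypes within an array.

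The Myod1 spots themselves were uneven. The probe was printed 10 times per array, and the scanner software marked 3, 8 and 8 of these spots as non-uniform in the Cy5 channel, out of 13, 25 and 23 such marks among all spots of the 3 arrays. None was marked in Cy3. The means above therefore rest on 7, 2 and 2 spots. With all 10 spots the processed signals were 199.7, 446 and 419 in the double heterozygote and 482, 1225 and 1088 in the double null. The log2 ratios were then 1.09, 1.37 and 1.24, and single spots ranged from 0.85 to 1.46, so that marked and unmarked spots gave the same picture.

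The unevenness could be read from the spread of pixels within a spot. In Cy5 the coefficient of variation of the pixels had a median over the 10 Myod1 spots of 36.9%, 35.01% and 38.5% on the 3 arrays, against 12.5%, 11.2% and 10.2% for other spots of the same signal range. Between 0.063% and 0.152% of those other spots were as uneven. In Cy3 the medians were 27.6%, 28.2% and 28.1%, against 21.3%, 15.8% and 15.9%. The Mdfi spots were even in Cy5, at 11.5% to 16.6%. Among the 171 usable probes printed 10 times, Myod1 had the largest log2 ratio of either sign, while its SD between arrays of 0.12 was close to their median of 0.0957. The part of the uneven spots in the Myod1 ratio was not tested.

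**Figure D2:**
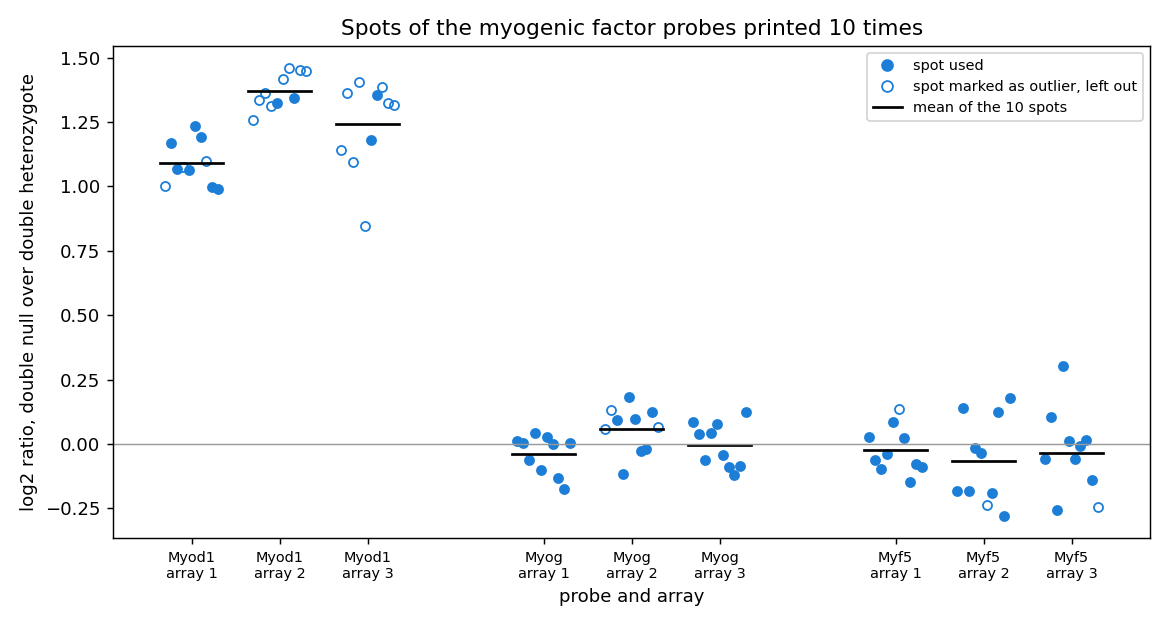
The log2 ratio (double null over double heterozygote) of each of the 10 spots of the Myod1, Myog and Myf5 probes on each array. Filled points are spots used, open points spots marked as outliers and left out, and black lines the mean of all 10. All Myod1 spots lay between 0.85 and 1.46, and the Myog and Myf5 spots lay around 0.

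The base composition of the Myod1 probe was unusual, a comparison made after its ratio had been seen. It held 46 T and G bases of 60, a number that 0.0826% of the probes reached, and 32 of them were T. Of the 12 usable probes with a mean log2 ratio of 1 or more, 3 had at least 46 T and G, and only 28 of all 25495 did. The other 2 of those 3 were the probe of Dpf1, which encodes a neuronal subunit of BAF chromatin remodelling complexes, with 49 T and G and a log2 ratio of 1.09, and a probe for the transcript cluster TC1469276, with 46 and a ratio of 1.11. Their ratios on the 3 arrays were 1.12, 1.23 and 0.92, and 0.98, 1.19 and 1.17. The third was Myod1 itself. Pixel spread in Cy5 was 15.2% to 26.5% for Dpf1 and 23.6% to 26.9% for TC1469276. Both probes were brighter than the Myod1 probe, and they were not compared with other spots of their brightness.

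Most other probes of such composition showed no such ratio. Of the 27 usable probes with at least 46 T and G other than Myod1, the median log2 ratio was -0.03, with a range from -0.29 to 1.11, and 3 (11.1%) were at 0.5 or above, against 0.73% of the 25490 usable probes that were not members. The third of them was a probe of Pacs1, a sorting adaptor of the trans-Golgi network, with 47 T and G and a log2 ratio of 0.58. A second Pacs1 probe with 32 T and G gave 0.06. Of all usable probes other than Myod1, whatever their T and G content, 24 held TTGTTGTTG, and they had a median of -0.0018, and the highest of them was at 0.19. Among the members, Mdfic probe 1 held 41 T and G and had a log2 ratio of 0.096, and the Myog probe held 45 but was too dim to give a ratio. The part of probe composition in the Myod1 ratio was not tested, and the array had a single Myod1 probe.

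**Figure D3:**
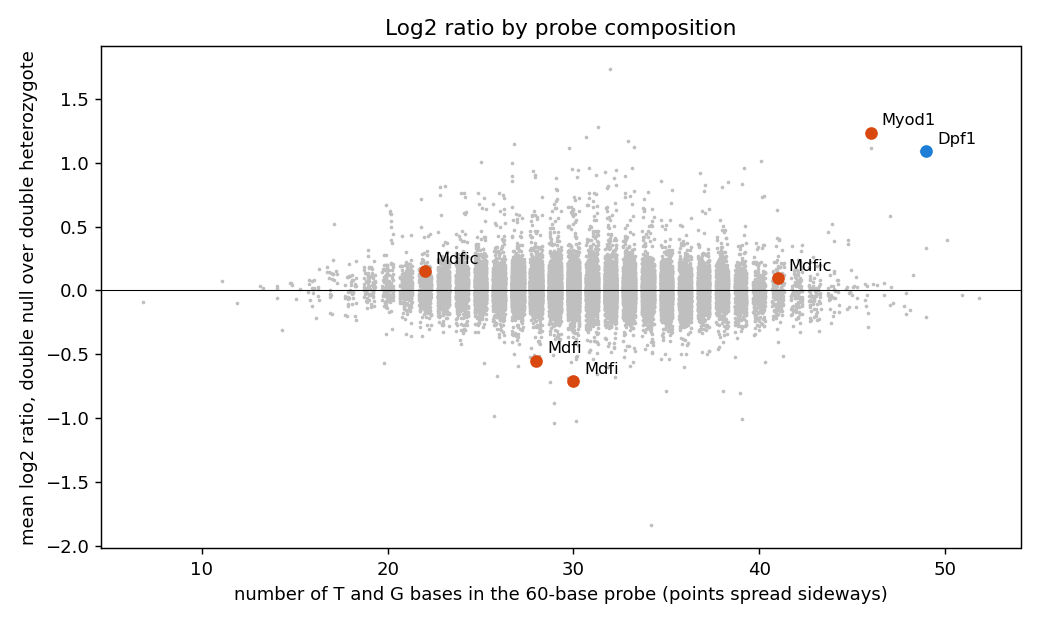
The mean log2 ratio of each of the 25495 usable probes against its number of T and G bases, with points spread sideways for legibility. Orange points are the probes of Myod1, Mdfi and Mdfic, and the blue point is Dpf1. Myod1 with 46 and Dpf1 with 49 T and G stood at ratios above 1, while most probes of such composition lay around 0.

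Transcripts of the other 3 myogenic factors were not measurable in either genotype. The Myf5 probe was not well above background at any of its 10 spots in either channel, and its net signal exceeded that of only 17.6% to 53.6% of the 153 negative control spots. Processed signals of Myf5 were 4.2, 3.6 and 3.2 in the double heterozygote and 3.7, 2.7 and 2.8 in the double null. Myf6, with 1 spot, had processed signals of 6.05, 11.3 and 3.11 in the double heterozygote and 7.54, 9.97 and 2.70 in the double null. It was not well above background on any array, although its net Cy5 signal exceeded that of 92.8% to 94.8% of the negative controls. A fold difference is given for neither gene.

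Myog, the differentiation factor, came closest to detection among these 3. Its processed signals over all spots were 8.23, 10.4 and 13.1 in the double heterozygote and 7.08, 11.3 and 12.6 in the double null, and the channels overlapped. Well above background were at most 3 of its 10 spots on an array in either channel. Its net signal nevertheless exceeded that of 96.1% to 99.3% of the negative controls in both channels. No difference between the genotypes was detectable at this signal, and no fold is given.

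Mdfi was lower in the double null with both of its probes. Probe 1 gave processed signals of 268, 297 and 283 in the double heterozygote and 121, 212 and 204 in the double null. Probe 2 gave 306, 352 and 339 in the double heterozygote and 131, 221 and 198 in the double null. The genotypes did not overlap with either probe, and the double heterozygote levels were nearly alike on the 3 arrays, while the double null level was lowest on array 1. The log2 ratios of probe 1 were -0.85, -0.40 and -0.39, with a mean of -0.55 ± 0.26 (SD, n = 3). Those of probe 2 were -0.94, -0.54 and -0.65, with a mean of -0.71 ± 0.20 (SD, n = 3). The SE of the 3 values was 0.152 for probe 1 and 0.118 for probe 2, and the moderated SE was smaller, at 0.0967 and 0.0809. The double null thus held 0.683 and 0.611 of the double heterozygote signal.

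Both Mdfi probes were at -0.5 or below, as were 0.157% of all probes, and probe 2 ranked as the 11th lowest. Of the 1684 and 1696 probes of like brightness, 6 and 3 were as low as probe 1 and probe 2. The probes share 55 of their 60 bases, being shifted by 5, so they measure the same stretch of transcript and are no independent check of each other. With 28 and 30 T and G bases they had an ordinary composition, and none of their spots was marked. The double null was thus lower in Mdfi and higher in Myod1 on the same 3 arrays.

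Mdfic, the relative of Mdfi, differed between genotypes by about the spread between arrays. Probe 1 (chr6:15742015-15742073) gave processed signals of 167, 205 and 235 in the double heterozygote and 209, 223 and 219 in the double null. Its log2 ratios were 0.23, 0.12 and -0.06, with a mean of 0.096 ± 0.15 (SD, n = 3). Probe 2 (chr6:15741404-15741463), which lies apart from probe 1, gave 90.1, 123 and 137 in the double heterozygote and 117, 130 and 142 in the double null. Its log2 ratios were 0.29, 0.11 and 0.04, with a mean of 0.15 ± 0.13 (SD, n = 3). The genotypes overlapped with both probes. Of the 5 usable member probes, 2 were higher on all 3 arrays and 2 lower on all 3, which was so for 24.6% and 19.2% of all probes.

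**Figure D4:**
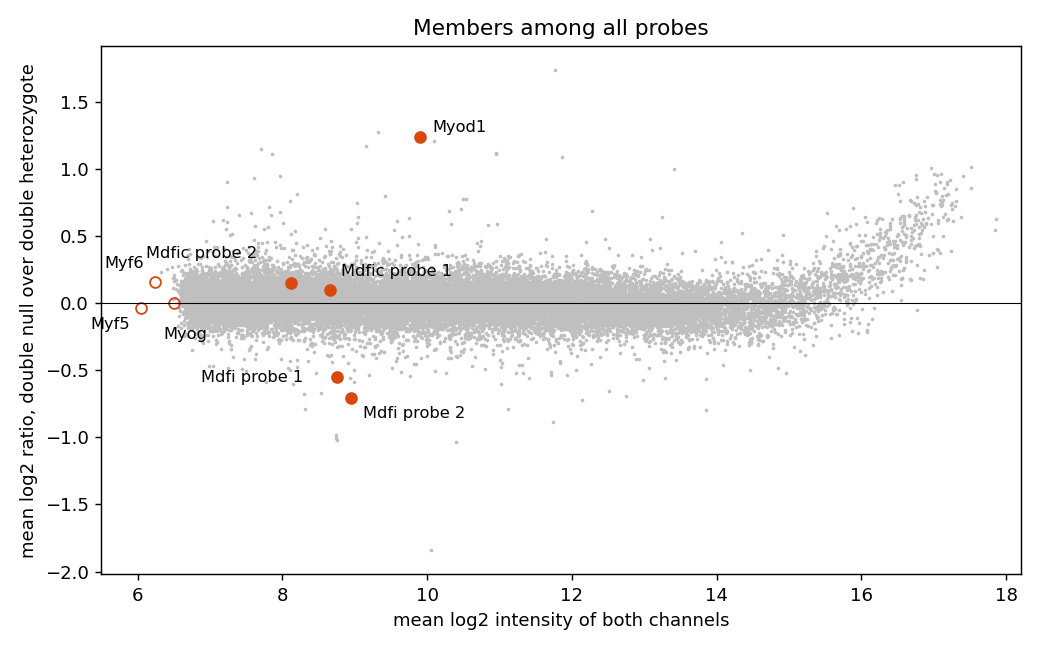
The mean log2 ratio of each usable probe against its mean log2 intensity over both channels (grey), with the members in orange. Filled points were usable and open points not. Myod1 lay above and both Mdfi probes below the probes of their brightness, and the rise of the grey cloud on the right is that of the brightest probes.

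No partner gene of the myogenic factors passed the test. The list of E proteins and HLH inhibitors, which either pair with bHLH factors or compete for them, had 14 of its 17 genes tested, and none passed the limma threshold in either direction, and 3 of the 14 (21.4%) had an unadjusted p under 0.05, near the 20.2% of all probes. Their median log2 ratio was 0.0085, beside 0.010 over all probes. The brightest members were Id2 at 0.11 (adjusted p = 0.338) and Id1 at -0.02 (adjusted p = 0.840), which sequester E proteins, and the E protein gene Tcf12 at 0.09 (adjusted p = 0.478). Their other probes gave -0.04 for Id2, -0.01 for Id1, and -0.25, -0.18, -0.06 and -0.0056 for Tcf12, so that the sign of Id2 and Tcf12 depended on the probe. Of the MEF2 factors and coactivators, which act with myogenic factors on muscle promoters, all 14 were tested and none passed limma's threshold, with 4 (28.6%) at an unadjusted p under 0.05, all of them higher, beside 20.2% of all probes in either direction and 11.8% higher, and a median of 0.024. The remodelling ATPase gene Smarca4 was at 0.21 (adjusted p = 0.125), the methyltransferase gene Carm1 at 0.096 (adjusted p = 0.342) and Setd7 at -0.05 (adjusted p = 0.632). Other probes gave 0.05 and -0.02 for Smarca4, 0.06 for Carm1, and 0.16 and -0.07 for Setd7.

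Only Tnni1 and Myl4 were called higher among the 23 of 41 listed skeletal muscle genes that could be tested, and none lower. Of all probes 1.2% were called higher and 0.282% lower. At an unadjusted limma p under 0.05 lay 4 of the 23 (17.4%), all of them higher, beside 11.8% of all probes. Tnni1, the slow skeletal troponin I that is also made in the embryonic heart, had log2 ratios of 1.26, 0.84 and 1.34 and a mean of 1.15 ± 0.098 (SE, n = 3), with limma adjusted p = 0.0048. Its probe was well above background in the double null on all 3 arrays and in the double heterozygote on 2 of 3, and a second probe gave 0.71 (adjusted p = 0.0200). Myl4, a light chain of embryonic and atrial muscle, rose by 0.54 ± 0.087 (SE, n = 3; adjusted p = 0.0434), and its second probe gave 0.43 (adjusted p = 0.133). The median of the 23 was 0.073, and 16 were above 0, beside 53.9% of all probes. Tnni1, Ttn, Myh8, Tnnc1, Neb, Cacng1 and Dok7 were usable through the double null channel alone, and all of them but Dok7 were above 0. Measurable in both genotypes on every array were 16 of the 23. A gene that enters through the double null channel alone is more likely to have a positive ratio. The number above 0 therefore cannot be read as a shift of the list. Among all 23, the genes other than Tnni1 and Myl4 lay between -0.12 and 0.24, each by its brightest usable probe.

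The other 21 muscle genes, many of which mark differentiated or fusing muscle, did not pass the test. The fusion gene Mymk was at -0.08, the M-cadherin gene Cdh15 at -0.06 and the acetylcholine receptor gene Chrnb1 at 0.08. Of the thin filament genes, Tnnt3, Tnnt1, Tnnc2, Tnnc1 and Tnni2 were at -0.12, -0.07, -0.0068, 0.09 and 0.11, and Actc1, Tpm1 and Tpm2 at 0.05, 0.06 and 0.10. Mylpf, Myh3 and Myh8, genes of skeletal myosins, were at 0.02, 0.04 and 0.09. The giant proteins of the sarcomere, Ttn and Neb, were at 0.07 and 0.12, the intermediate filament gene Des at 0.24, and Casq2, Ryr1, Cacng1 and Dok7 at -0.05, 0.13, 0.15 and -0.07. Other probes differed in sign for Ryr1 (-0.11 and -0.099) and Myh3 (-0.05). All of these had limma adjusted p between 0.201 and 0.954. A second probe of Ttn was higher than the first, at 0.25 (limma adjusted p = 0.09999). The adult and fetal muscle genes Ckm, Acta1, Chrna1, Chrng, Myl1, Musk, Myh1, Myh2 and Myh4 were not usable in either channel.

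No heart muscle gene passed the test. Of 24 such genes 15 were tested with limma, 8 (53.3%) had an unadjusted p under 0.05, all of them higher, beside 11.8% of all probes, and 12 were above 0, beside 53.9% of all probes. The median log2 ratio was 0.27, with values from -0.05 to 0.76. The brightest were Myh7 at 0.31 (adjusted p = 0.179), Myl7 at 0.59 (adjusted p = 0.154) and Isl1 at 0.16 (adjusted p = 0.367). Closest to the threshold lay Hand1 at 0.31 (adjusted p = 0.0514) and Gata6 at 0.74 (adjusted p = 0.05185). The summed processed signal of the list was 2573 to 4425 in the double heterozygote and 3261 to 6098 in the double null, higher in the double null on each array. Measurable in both genotypes on every array were 12 of the 15. Myocd (0.61) and Ttn (0.07) were usable through the double null channel alone, and Tbx20 (0.10) through the double heterozygote channel alone. Entry through the double null channel alone makes a positive ratio more likely, which limits the reading of the counts for Myocd and Ttn. Of the list 9 genes, among them Gata4, Myl2 and Tbx5, were not usable. The part of heart cells in the values of Tnni1, Myl4 and Myod1 was not tested.

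None of the genes that act upstream of the myogenic factors passed the test. Of 16 such genes 14 were tested with limma, 5 (35.7%) were lower and 1 (7.14%) higher at an unadjusted p under 0.05, beside 8.37% and 11.8% of all probes, and the median log2 ratio was -0.09. The brightest were Tbx1, needed for head muscle, at -0.18 (adjusted p = 0.135), the transcriptional cofactor gene Eya1 at -0.22 (adjusted p = 0.117) and the Hedgehog effector gene Gli2 at 0.07 (adjusted p = 0.544). Second probes gave -0.0020 for Eya1 (adjusted p = 0.989) and -0.02 for Gli2. Markers of the tissues in which Myod1 is usually made were likewise without a call. Of 20 somite and paraxial mesoderm genes 13 were tested with limma, 3 (23.1%) had an unadjusted p under 0.05, beside 20.2% of all probes, and the median was 0.021. In it Foxc1, Foxc2 and Tcf15 were at -0.17, 0.11 and 0.03 (adjusted p = 0.168, 0.780 and 0.896). The summed signal of that list was 6066 to 6833 in the double heterozygote and 5509 to 6501 in the double null, so the groups overlapped, and the segmentation genes Hes7, Mesp1, Mesp2 and Msgn1 were not usable. Of 14 head mesoderm and mesenchyme genes 12 were tested with limma and none passed, 4 (33.3%) had an unadjusted p under 0.05, 2 in each direction, with a median of 0.014, and Prrx2 was at -0.02 (adjusted p = 0.821).

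Cell cycle genes through which myogenic factors are known to act gave a call in each direction among the 9 listed and tested. Of all probes 1.2% were called higher and 0.282% lower. At an unadjusted limma p under 0.05 lay 4 of the 9 (44.4%), 2 in each direction, beside 20.2% of all probes. Cdkn1b, an inhibitor of cyclin-dependent kinases, rose by 0.37 ± 0.055 (SE, n = 3; limma adjusted p = 0.0334), and its second probe gave 0.16 (adjusted p = 0.149). Ccnd1, the D1 cyclin, fell by 0.33 on the log2 scale (SE 0.0530, n = 3; adjusted p = 0.0428), a direction that turned with median centring of the arrays (0.28). The median of the 9 was 0.036.

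Binding partners of Mdfi and Mdfic and readouts of Wnt signalling had 20 of 23 genes tested, 1 of them lower and none higher. Of all probes 0.282% were called lower and 1.2% higher. At an unadjusted limma p under 0.05 lay 3 of the 20 (15%), 2 higher and 1 lower, beside 20.2% of all probes. The median log2 ratio of the list was -0.025. Lef1, the Wnt effector that proteins of this family bind, fell by 0.30 on the log2 scale with values of -0.27, -0.32 and -0.31 (SE 0.0486, n = 3; limma adjusted p = 0.0432). Its second probe was at -0.0026 (adjusted p = 0.985), and the direction of the first turned with median centring (0.19).

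The labelled tissue was checked against its markers. Of 20 otic placode genes 17 were tested, 2 fell and 15 were below 0, with a median log2 ratio of -0.20. Each of the 17 was measurable in both genotypes on every array. Of all probes 0.282% were called lower. At an unadjusted limma p under 0.05 lay 10 of the 17 (58.8%), all of them lower, beside 8.37% of all probes. Pax2, a defining gene of the placode, was on the array but not usable. Sox9 fell by 0.69 on the log2 scale (limma adjusted p = 0.0474) and Hmx2 by 0.59 (adjusted p = 0.0229), and other Sox9 probes gave -0.40 and -0.0040. With median centring Sox9 was at -0.16 and was not called (adjusted p = 0.239). Summed otic signal was 31166 to 35811 in the double heterozygote and 24383 to 28679 in the double null, without overlap. Of 14 surface epithelium genes 13 were tested and none passed limma's threshold, with 3 (23.1%) lower at an unadjusted p under 0.05 and a median of -0.11, and the bright keratin genes Krt18 and Krt8 and the claudin gene Cldn7 were at -0.04, -0.16 and -0.38 (adjusted p = 0.795, 0.350 and 0.0931). Summed epithelial signal was 65234 to 71337 in the double heterozygote and 52198 to 64214.5 in the double null, likewise without overlap. Of these 13 epithelial genes 11 were below 0 and 2 above. Otic and epithelial markers were thus measured in both groups, at a lower summed signal in the double null.

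Of the 7 list genes past the threshold, Tnni1 alone stayed past it when only probes up to a mean log2 intensity of 15 were tested, an alternative chosen after seeing the data (adjusted p = 0.0342, and 0.0861 to 0.113 for the other 6). Without array 3 Tnni1 was likewise the only call left among the list genes (adjusted p = 0.0456). The call of Tnni1 was itself lost with the scanner's processed signals (adjusted p = 0.209), with separate channels (0.312) and with an intensity trend in the prior (0.0589). Its probe was not tested where both channels had to be well above background, nor in the series table. With separate channels Hmx2 (0.0297) and Sox9 (0.0360) were the 2 calls left.

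**Figure D5:**
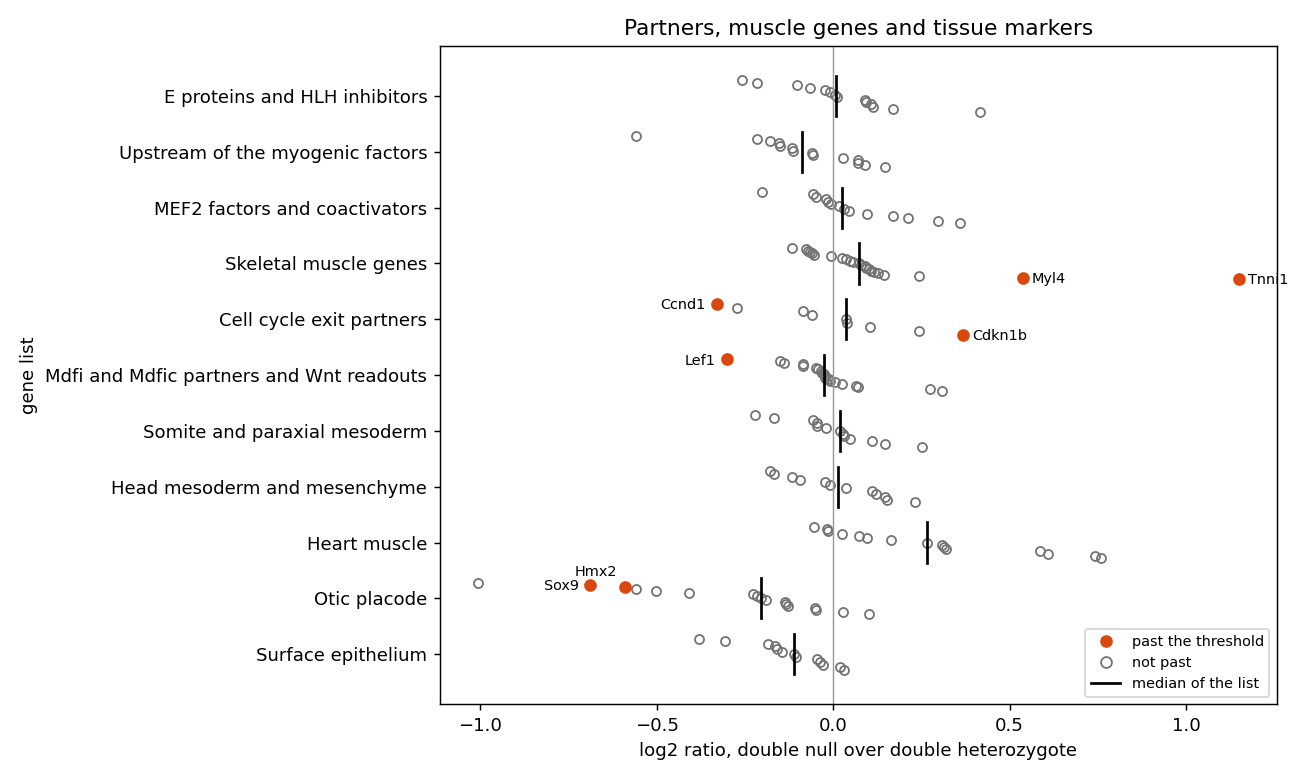
Log2 ratios of the tested genes of each list, 1 point per gene, orange where past the limma threshold of 0.05 and open otherwise, with black bars at the median of the list. Tnni1 and Myl4 stood to the right of the skeletal muscle genes, the heart muscle median lay at 0.27, and the otic placode median at -0.20.

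Of the genes next to the members on the chromosome, 1 passed the test, as did 1.48% of all probes. Their counts at an unadjusted limma p under 0.05 stand beside 20.2% of all probes. Within 500 kb of the Myod1 probe 19 genes were tested and 1 was higher, the lactate dehydrogenase gene Ldha at 0.96 (limma adjusted p = 0.00297), which lay 477 kb away and belonged to the brightest probes, and 7 (36.8%) had an unadjusted p under 0.05, 5 higher and 2 lower. The nearest tested neighbours, Otog at 67.6 kb and Sergef at 64.9 kb, were at -0.09 and 0.11. Around Mdfi 16 genes were tested and none passed limma's threshold, with 3 (18.8%) at an unadjusted p under 0.05, and its nearest neighbours Foxp4 and Frs3 were at -0.05 and -0.03. Around Myog 12 were tested and none passed, nor had any an unadjusted p under 0.05, with Ppfia4 and Adora1 both at -0.08, and the 1 gene tested near Mdfic, Foxp2, was at 0.12.

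The probes whose 3 log2 ratios lay closest to those of Myod1, by Euclidean distance over the 3 arrays, belonged to Dpf1 (0.367), Rps23 (0.423), Rps12 (0.453), Rps14 (0.508) and Pigt (0.515). The last 4 had mean log2 intensities of 16.97 to 17.52 and lay among the brightest probes, while Dpf1 is the T and G rich probe described above. Closest to Mdfi probe 2 lay Gpr83 (0.174), Hmx2 (0.210), Rprd1b (0.252), Prr15 (0.261) and Sox9 (0.279). With 3 arrays such likeness is a coarse measure.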

How the data were processed

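The arrays were Agilent 2-colour 60-base arrays, and the pooled RNA was amplified linearly before labelling, per the labels' protocols. Spots were extracted with Agilent Feature Extraction 9.5.1.1, per the submitters' processing notes. The deposited scanner files hold mean and background intensity per spot, not normalized, a background-subtracted and dye-normalized processed intensity, and a log10 ratio. A deposited table of the whole series gives the authors' ratios as log2 values and was used as an alternative.

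Background was corrected with normexp (offset 50) and log2 ratios by loess (span 0.3) within arrays, with control spots at weight 0. Spots marked non-uniform or as population outliers were left out, and spots of a probe were averaged. A probe was usable if over 50% of its spots were well above background in 1 channel on all 3 arrays. The 25495 usable probes were fitted with lmFit and eBayes of limma 3.58.1 (R 4.3.3), p-values were adjusted by Benjamini-Hochberg over them all, and the threshold was 0.05. Both genotypes share each array, so the ratio already pairs the replicates. The fit was tested on simulated data. The SEs given for list genes are the moderated ones of this fit. Names came from RefSeq records of GRCm38.p6, used for names only: 22951 probes matched by accession, 6659 by symbol and 3109 by synonym, and 8455 kept the file's name. A list gene was represented by its usable probe of highest mean intensity.

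The members and the lists were chosen with earlier results of these data known. Named were all member probes, Fgf3 and Fgf10, list genes past the threshold (otherwise the 3 brightest), all usable skeletal muscle genes, the nearest usable neighbours and the 5 most similar probes. Names given for T and G rich probes, for neighbouring Ldha, for heart genes close to the threshold and for genes that were not usable were chosen after their values were seen. Alternatives covered background, normalization, filters, outlier spots, separate channels, the prior, weights, thresholds and each array left out.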

Additional observations from a re-analysis of the deposited data

How the results depend on the processing

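Of the alternatives 11 (12 for Myod1, with outlier spots kept) changed a member's mean ratio, and in these Myod1 and both probes of Mdfi and Mdfic kept their sign. The others left the ratios as they were and say nothing on their stability. Myod1 ranged from 1.19 to 1.59 (1.36 with the scanner's processed signals and in the series table, 1.59 with median centring), Mdfi probe 1 from -0.70 to -0.32 and Mdfi probe 2 from -0.89 to -0.45 (the last with median centring), where the Mdfic probes stood at 0.32 and 0.28. Median centring moved the median of all probes to 0.33, so both Mdfic values lie at or below that shift. Myf5, Myf6 and Myog, at background, ranged from -0.66 to -0.026, from -0.40 to 0.29 and from -0.40 to 0.022. The count of called probes was far less stable than the ratios. It was 377 (80.9% higher), and 198 with a normexp offset of 16, 0 with processed signals (4414 at an unadjusted limma p under 0.05), 0 in the series table (4409), 30 with a loess span of 0.1, 19468 with median centring, 185 with separate channels and no replicate block (the fit without the array pairing; 93.5% higher), 179 with an intensity trend (100% higher), 1076 at an adjusted p of 0.10 (65% higher), 16 with probes up to an intensity of 15 (added after seeing the data), and 87 to 305 with 1 array left out (87 without array 3 and 227 without array 2). The 7 calls among list genes became 1, 0, 0, 1, 109, 2, 0, 19 and 1 in the same order, 3 without background subtraction, 11 with 1 probe per gene name, and 1 to 8 with 1 array left out. The 1 called neighbour became 0 with processed signals, in the series table, with a span of 0.1 and up to intensity 15, 36 with median centring and 3 at 0.10. Ccnd1 and Lef1 turned to 0.28 and 0.19 with median centring. The causes were not tested.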
